A study of Homo sapiens with 8 samples.

Results

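Caco2 cells with the brightest AC133 staining were set against Caco2 cells without it, sort by sort, on 4 of the 8 arrays of the series. Caco2 is an established human colon carcinoma line whose cells take on features of absorptive enterocytes in culture. The AC133 antibody binds CD133, a membrane protein and the product of PROM1. The gates, as labelled, took the top 10% by staining as AC133 high and unstained cells as AC133 negative. Each gate was collected in sort 1 and in sort 2, which the labels call biological duplicates. Both groups came from Caco2 cells infected at passage 10 with a lentivirus in which the mouse Melk promoter drives enhanced green fluorescent protein, and were grown in medium with fetal bovine serum. A pair of clones of that culture was used, and how the clones were divided between the sorts is not labelled. The other 4 arrays hold the same gates of WM115, a human melanoma line with no reporter named, and serve here to estimate the spread and to set a difference beside the same gates elsewhere. Probes were kept if both Caco2 arrays of at least 1 gate detected them (detection p-value under 0.05), which left 12244 of 22184 probes, for 10045 named genes. Of these probes 11078 were detected on all 4 Caco2 arrays, 756 on both AC133 high arrays but not on both negative arrays, and 410 the other way round.

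CD133 is a protein of membrane protrusions that has been used to sort cells from colon and other tumours. Colon epithelium renews from stem cells that depend on Wnt signals, and their offspring become absorptive enterocytes or secretory cells such as goblet, Paneth and enteroendocrine cells. Wnt signalling switches on its own inhibitors, among them NKD1, NOTUM and AXIN2. The liver shares its endodermal origin with the gut and secretes albumin, fibrinogen and most other plasma proteins, and Caco2 cells are known to make several of them.

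The 4 Caco2 arrays had 11915 to 12675 probes detected and correlated with each other at 0.972 to 0.987 across the tested probes. Median signals ran from 49.5 to 58.2 intensity units, and each probe was read from a median of 41 to 42 beads. Of 15 colon epithelium markers on the array 11 were detected on all 4 arrays, with EPCAM, KRT8, KRT18, KRT19, TSPAN8 and CDH17 among the bright ones, while CDX1 and GPA33 were detected on none. Of 9 melanocyte markers MLANA, TYR, TYRP1, SOX10 and S100B were detected on none, PMEL and GPR143 were detected on all 4, and MITF and SLC45A2 on some. The melanocyte list's summed deposited signal was 414 to 471 units in the AC133 high cells and 443 to 465 units in the negative cells. Of 10 fibroblast markers 6 were detected on none, and the summed deposited signal of the fibroblast list was 452 to 482 units in the AC133 high cells and 423 to 430 units in the negative cells. Of 9 blood cell markers CD3E and HBB were detected on none, and the list's summed signal was 3363 to 3686 units in the AC133 high cells and 5094 to 5654 units in the negative cells, with LYZ the brightest, which gut epithelium also makes. Of 7 endothelial markers none was detected on all 4 arrays. In sorted populations such as these, a higher signal in every cell and a larger share of expressing cells cannot be told apart.

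The sorted gene followed its label. PROM1 had a normalized log2 signal of 10.95 and 11.12 in the AC133 high cells of sorts 1 and 2, against 6.66 and 7.06 in the negative cells. Both high arrays lay far above both negative arrays, an 18.1-fold difference (4.18 log2 units, SE 0.19, n = 2 per group), with a limma adjusted p of 0.0027. The gate was set on this protein, so the value checks the sort and is not a finding. MELK, the mitotic kinase gene whose mouse promoter was in the reporter, had 9.57 and 9.63 in the high cells and 9.29 and 9.47 in the negative cells, and the fitted difference was 0.22 log2 units (adjusted p 0.726).

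The question was which other transcripts move with AC133 staining in Caco2. Limma with each sort as a block called 92 probes, or 0.751% of those tested, at an adjusted p under 0.05. Of these 66 were higher in the AC133 high cells (0.539%) and 26 were lower (0.212%). With 1 probe per named gene 87 genes passed (0.866%), 61 higher (0.607%) and 26 lower (0.259%), and 2 called probes carry no gene symbol. Among the 11078 probes detected on all 4 arrays, the same fit called 73 (0.659%), 56 of them higher (0.506%) and 17 lower (0.153%). All 92 moved in the same direction in both sorts and had groups that did not overlap, which held for 4756 of all tested probes (38.8%). The smallest called difference was 1.99-fold and the median was 2.71-fold, while the median standard error over all tested probes was 0.17 log2 units. An unadjusted p under 0.05 was reached by 1285 probes. The number of calls depends on the fit. It was 120 without the block (75 shared), 259 with the Caco2 arrays alone (92 shared), 32 with a larger offset, and 0 when every probe of the array was tested or when either Caco2 sort was left out. With 2 arrays a group an exact permutation p is 0.333 at its smallest, so every call rests on a spread pooled over both lines and moderated across probes.

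**Figure D1:**
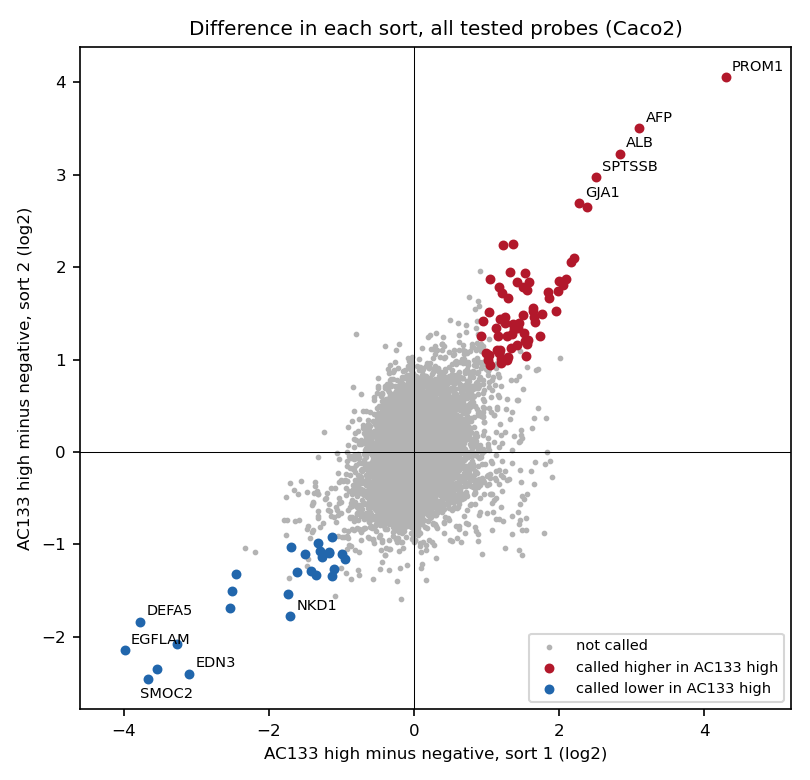
Difference between AC133 high and negative Caco2 cells in log2 units, sort 1 on the horizontal axis and sort 2 on the vertical axis, with 1 point for each of the 12244 tested probes, 66 called higher in red, 26 called lower in blue and the rest in grey. The called probes lie in the upper right and lower left, PROM1, AFP and ALB farthest up, and the lower ones reach further in sort 1 than in sort 2.

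Among the lists, which were chosen with earlier results of these data known, liver plasma proteins had the most called rises by number. The counts describe the list and are not a test of it. Of 35 measured genes on the list 9 rose in the AC133 high cells, none fell, and 31 had a positive difference, with a median of 0.60 log2 units (0.58 in sort 1 and 0.39 in sort 2). Over all 10045 genes 0.607% were called higher and 0.259% lower, 48.7% were positive and the median was -0.008. AFP, the fetal counterpart of albumin, had 10.28 and 11.03 in the high cells, against 7.18 and 7.52 in the negative cells. ALB, serum albumin, had 8.61 and 9.18 in the high cells and 5.78 and 5.95 in the negative cells. The high arrays of both genes stood well above the negative arrays, by 9.90-fold for AFP (SE 0.17 log2 units, adjusted p 0.0027) and 8.19-fold for ALB (SE 0.16, adjusted p 0.0030). SELENOP, a plasma carrier of selenium, had 7.98 and 8.72 in the high cells and 5.59 and 6.07 in the negative cells, a 5.73-fold difference with an adjusted p of 0.0044.

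The fibrinogen chains moved the same way. FGB, which encodes the beta chain, had 9.30 and 9.77 in the high cells and 7.14 and 7.72 in the negative cells, a rise of 2.10 log2 units (SE 0.15, adjusted p 0.0071). FGA, the alpha chain, rose by 1.29 and by 1.35 on the probes that passed (adjusted p 0.033 each), and another probe, dim and undetected in the negative cells, differed by 0.39 (0.440). The probes of FGG, the gamma chain, differed by 1.05 and 0.84, with adjusted p of 0.056 and 0.108. FGL1, a fibrinogen-like protein secreted by liver, is outside the list and the naming rule. It had 6.22 and 6.05 in the high cells against 4.46 and 4.56 in the negative cells. In the negative cells FGL1 was not well above background, so it was at least 2.54-fold higher in the high cells (adjusted p 0.021).

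The other called members of the list have separate roles in plasma. HABP2, a hyaluronan-binding serine protease, had 7.45 and 7.38 in the high cells and 5.61 and 5.64 in the negative cells, a rise of 1.79 log2 units. TFPI, which inhibits the tissue factor pathway of clotting, rose on all 3 of its tested probes, by 2.63-, 2.76- and 2.82-fold (adjusted p 0.029 to 0.049). HPX, which binds haem, rose by 1.31, and ORM2, an acute-phase carrier protein, by 1.27. F2, prothrombin, differed by 0.95 (adjusted p 0.058), SERPINA3, a protease inhibitor, by 0.95 (0.060) and TTR, transthyretin, by 1.00 (0.151), none past the threshold. SERPINA1, an abundant liver protease inhibitor that did not pass, differed by 0.26 at a signal near 12, and AMBP by -0.47. Among 18 measured apolipoprotein and lipoprotein assembly genes none passed and 14 were positive, with MTTP, which loads lipid onto apolipoprotein B, at 1.05 (adjusted p 0.054) and APOB at 0.93 (0.081).

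Many hepatocyte genes were not detected at all. Of 18 hepatocyte markers on the array 10 were detected on all 4 Caco2 arrays, while TF, CYP3A4, CYP2E1, ARG1, TAT, G6PC1, PCK1 and HAMP were detected on none. The summed deposited signal of these markers was 14759 to 21241 units in the AC133 high cells and 9816 to 12605 units in the negative cells. That signal is not normalized between arrays, and a few bright genes can carry the sum. The colon epithelium list summed to 34242 to 47044 units in the high cells and 34720 to 39361 units in the negative cells. The median normalized difference of the 18 hepatocyte markers, undetected ones included, was 0.08 log2 units. Whether cells of another type took part in the rise of the plasma proteins was not tested. Among 18 measured hepatic and intestinal transcription factors none rose, beside 0.607% of all genes called higher and 0.259% called lower. PROX1, a homeobox factor of liver and other tissues, fell by 1.03 log2 units (adjusted p 0.048), and missed the threshold without the block (0.071) and under 20 of 25 alternatives in all. FOXA1, a forkhead factor, differed by 0.89 (adjusted p 0.062). Called genes outside the list and the naming rule, picked after their values were seen, include SLC10A1, the bile acid uptake transporter of hepatocytes, which rose by 1.40 log2 units, and CPN1, a plasma carboxypeptidase subunit, which rose by 1.60. ASS1, a urea cycle enzyme, fell by 1.20, and CPS1, the first enzyme of that cycle, differed by -0.88 (adjusted p 0.415).

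ALB and AFP are neighbours on chromosome 4, and so are FGB and FGA, with no other protein-coding gene between the members of either pair. Their promoters are shown because the genes rose together and lie side by side. The sequences are from RefSeq (GRCh38.p14), 250 bases upstream of the first listed start, 5′ to 3′ on the strand of the gene. They cover chr4:73404037-73404286 and chr4:73435971-73436220 on the plus strand for ALB and AFP, chr4:154562730-154562979 on the plus strand for FGB and chr4:154590743-154590992 on the minus strand for FGA. Capitals mark GTTAAT or its reverse complement ATTAAC, part of the motif of HNF1, a transcription factor of liver and gut.
ALB: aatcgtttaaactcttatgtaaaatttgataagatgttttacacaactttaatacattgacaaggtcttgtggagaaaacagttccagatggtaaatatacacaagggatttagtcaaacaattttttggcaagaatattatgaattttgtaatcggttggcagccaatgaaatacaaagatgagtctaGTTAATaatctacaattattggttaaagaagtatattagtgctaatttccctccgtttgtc
AFP: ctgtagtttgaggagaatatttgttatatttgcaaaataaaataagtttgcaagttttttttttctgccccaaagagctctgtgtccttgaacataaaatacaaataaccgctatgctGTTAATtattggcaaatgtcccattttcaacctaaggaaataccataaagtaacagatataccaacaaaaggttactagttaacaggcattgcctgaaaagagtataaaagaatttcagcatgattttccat
FGA: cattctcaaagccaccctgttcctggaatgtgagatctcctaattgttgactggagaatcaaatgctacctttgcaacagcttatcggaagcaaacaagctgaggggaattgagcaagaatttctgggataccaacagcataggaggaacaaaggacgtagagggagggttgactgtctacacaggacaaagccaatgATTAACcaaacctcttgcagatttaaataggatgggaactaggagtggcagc
FGB: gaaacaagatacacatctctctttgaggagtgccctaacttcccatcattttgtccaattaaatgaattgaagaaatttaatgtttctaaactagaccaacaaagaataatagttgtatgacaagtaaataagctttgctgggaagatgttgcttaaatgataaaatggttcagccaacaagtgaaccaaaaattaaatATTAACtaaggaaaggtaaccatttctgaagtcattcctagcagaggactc
Each of these windows holds 1 match, whose first base is at position -61 in ALB, -132 in AFP, -52 in FGA and -51 in FGB, counted back from -1 just upstream of the start. The windows of HPX, SELENOP, HABP2 and TFPI hold none, and that of ORM2 was not analysed. Among the promoters of 8338 measured genes 3.50% hold the motif on either strand. These matches describe the letters of the reference only and were not tested against the differences.

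**Figure D2:**
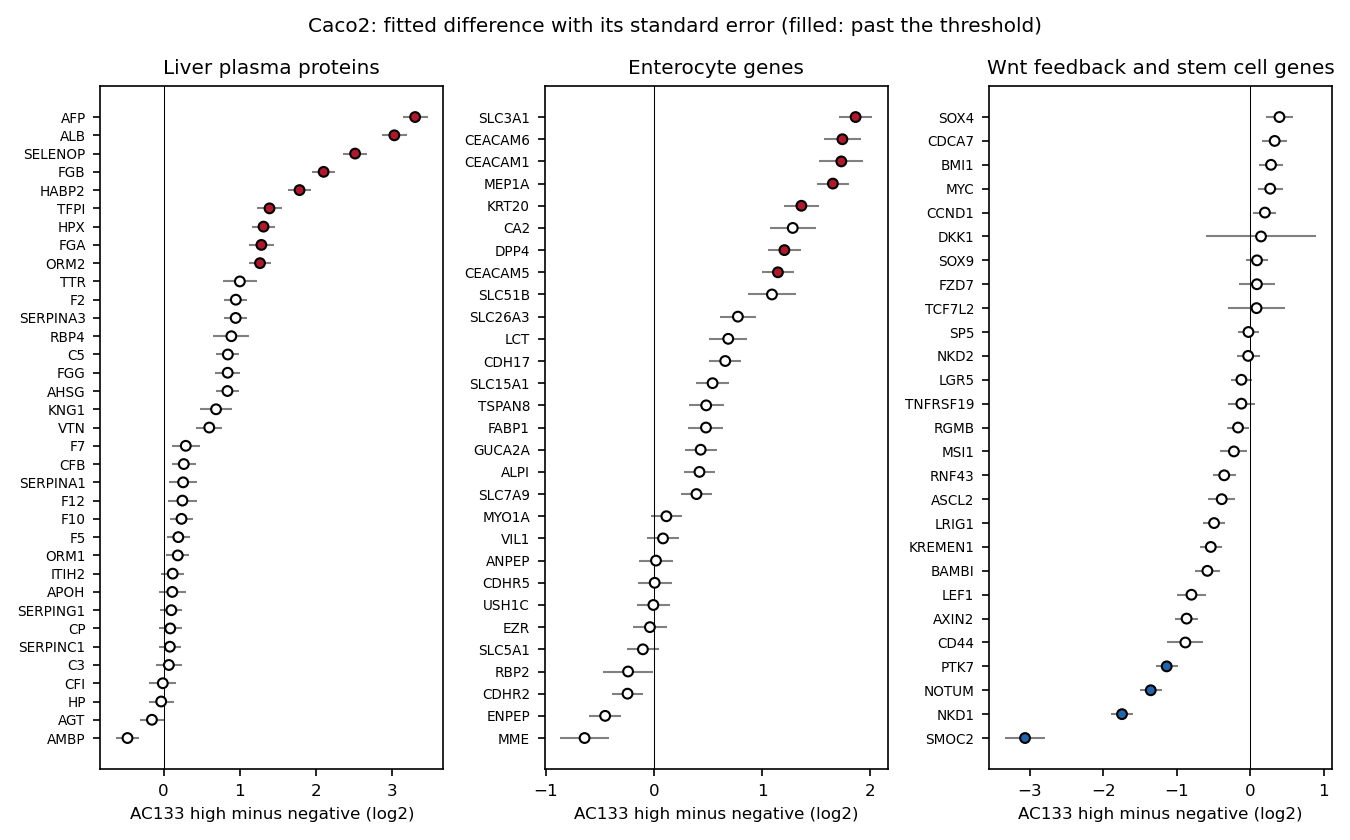
Fitted AC133 high minus negative difference in Caco2 (log2, horizontal axis) of each measured gene on 3 lists, with bars for the standard error and filled points past the threshold. Of the liver plasma proteins 9 passed and all 9 rose, of the enterocyte genes 7 passed and rose, and of the Wnt feedback and stem cell genes 4 passed and fell.

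Genes of absorptive enterocytes also rose. Of 29 measured genes 7 rose and none fell, 22 were positive, and the median was 0.48 log2 units (0.42 in sort 1 and 0.47 in sort 2). Over all genes 0.607% were called higher and 48.7% were positive. SLC3A1, a subunit of the cystine transporter of the brush border, had 7.22 and 7.32 in the high cells and 5.24 and 5.58 in the negative cells, a 3.64-fold rise (adjusted p 0.011). MEP1A, a brush border metalloprotease, had 6.66 and 6.60 in the high cells, against 5.10 and 4.85 in the negative cells, a 3.15-fold rise (adjusted p 0.014). DPP4, a brush border peptidase, rose by 1.21 log2 units. KRT20, a keratin of mature surface cells, had 7.78 and 8.59 in the high cells and 6.22 and 7.42 in the negative cells. Its high array of sort 1 thus lay only slightly above its negative array of sort 2, and it passed with the sorts as blocks (1.36, adjusted p 0.031) but not without them (0.217).

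The CEACAM genes, which encode adhesion proteins of the epithelial surface, gave 3 of these calls. CEACAM6 had 9.94 and 10.38 in the high cells and 7.98 and 8.86 in the negative cells, a rise of 1.74 log2 units. CEACAM1 had 7.66 and 7.88 in the high cells and 6.13 and 5.94 in the negative cells, a rise of 1.73. CEACAM5, the neighbour of CEACAM6 on chromosome 19 with no protein-coding gene between them, rose by 1.15 and lost its call without the block (adjusted p 0.072). CEACAM4, which is mainly known from granulocytes, differed by 0.22. Among genes of brush border structure the differences were small, with VIL1, villin, at 0.08, USH1C at -0.01 and EZR, ezrin, at -0.04, and CA2, a carbonic anhydrase, had 1.28 without passing (adjusted p 0.062). MME, a membrane peptidase, had the lowest difference of the list at -0.64.

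Genes of secretory gut cells moved in both directions. Of 10 measured genes 4 rose and 1 fell, with a median of 0.77 log2 units (1.19 in sort 1 and 0.36 in sort 2). Over all genes 0.607% were called higher and 0.259% lower. TFF1, a mucosal trefoil peptide, had 7.44 and 7.12 in the high cells and 5.78 and 5.65 in the negative cells, a 2.95-fold rise (adjusted p 0.017). TFF2, its neighbour on chromosome 21 and not on the list, rose by 1.12, and TFF3, the trefoil peptide of goblet cells, differed by 0.68 (adjusted p 0.513). SCGN, a calcium sensor of endocrine cells, had 7.90 and 7.93 in the high cells and 5.89 and 6.08 in the negative cells, a 3.80-fold rise. The endocrine granule genes CHGA, CHGB, SCG3, PYY and GCG were detected on none of the arrays. REG4, a secreted lectin, rose by 1.37, and AGR3, a protein of the disulphide isomerase family that was undetected in the negative cells, was at least 2.53-fold higher. DEFA5, a Paneth cell defensin, went the other way, with 5.30 and 4.57 in the high cells and 9.07 and 6.40 in the negative cells. Its negative arrays lay far apart, and the call (-2.80, adjusted p 0.048) was lost without the block (0.143). LYZ, lysozyme, differed by -0.61 (adjusted p 0.180).

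A few feedback inhibitors of Wnt signalling and intestinal stem cell genes fell. Of 27 measured genes 4 fell and none rose, 18 were negative, and the median was -0.16 log2 units (-0.13 in sort 1 and -0.28 in sort 2), so most members moved little. Over all genes 0.259% were called lower and 48.7% were positive. SMOC2, a secreted protein of intestinal stem cells, had 4.79 and 4.91 in the high cells, against 8.45 and 7.37 in the negative cells, and fell by 3.06 (SE 0.28, adjusted p 0.014). NKD1, a Dishevelled-binding inhibitor, had 8.27 and 7.77 in the high cells and 9.98 and 9.55 in the negative cells, and fell by 1.74 (SE 0.15, adjusted p 0.011). NOTUM, an enzyme that removes the lipid from Wnt ligands, had 4.95 and 4.73 in the high cells and 6.37 and 6.02 in the negative cells, and fell by 1.35. PTK7, a Wnt co-receptor, fell by 1.14 with the block and missed the threshold without it (adjusted p 0.284). AXIN2, another feedback inhibitor, differed by -0.86 (adjusted p 0.092), LEF1, a transcription factor of the pathway, by -0.80 (0.212), and CD44 by -0.88 and -0.39 on its probes (0.255 and 0.471). LGR5, the stem cell receptor, differed by -0.12, MYC by 0.27 and SOX9 by 0.09, none of them past the threshold. DACT2, the protein-coding neighbour of SMOC2 on chromosome 6 and itself a Dishevelled-binding protein, rose by 1.32 while SMOC2 fell. The TCF core CTTTG was found in the window of SMOC2 and not in that of PTK7, beside 34.5% of measured genes. The windows of NKD1 and NOTUM were not analysed.

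**Figure D3:**
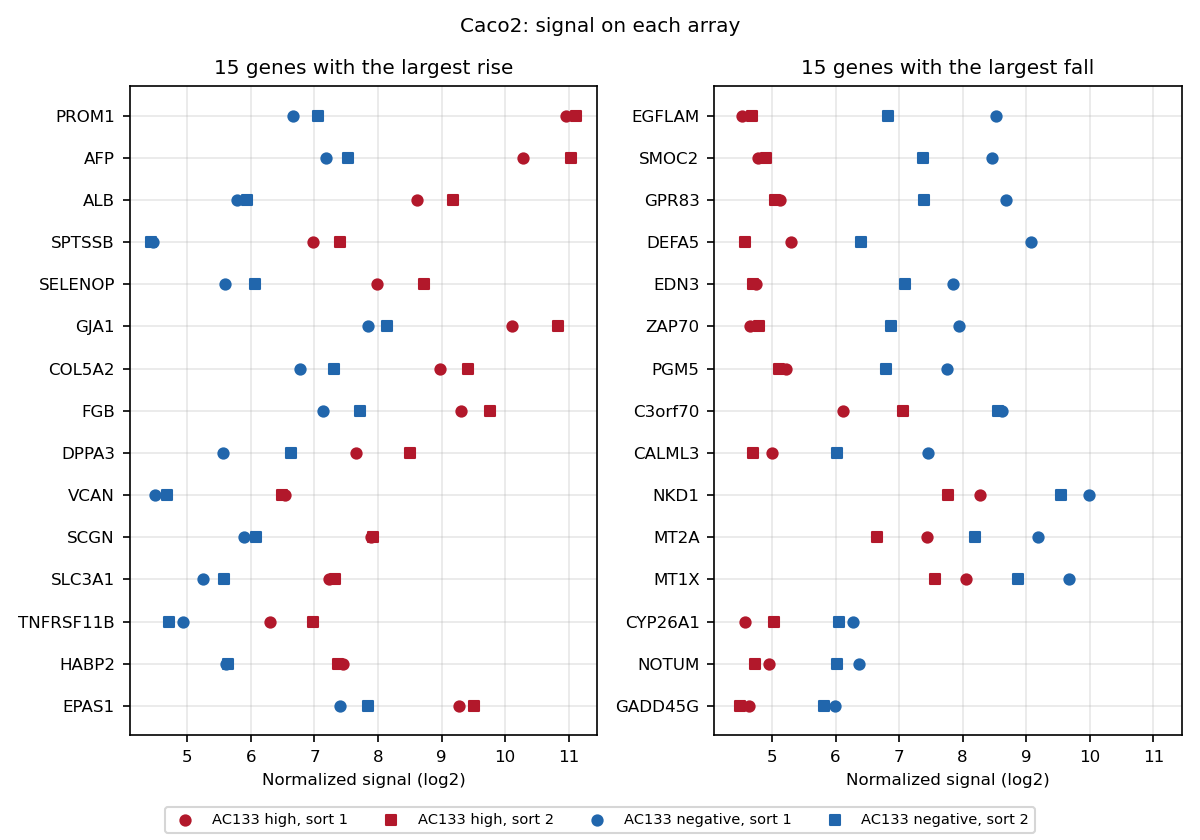
Normalized log2 signal (horizontal axis) on each of the 4 Caco2 arrays for the 15 genes with the largest called rise (left) and the 15 with the largest called fall (right), circles for sort 1 and squares for sort 2, AC133 high in red and negative in blue. No gene has overlapping groups, which held for every called probe and for 38.8% of all tested probes. Most genes on the right lie near 5 in the high cells, close to the detection limit.

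Other large rises were single genes of varied roles. SPTSSB, a small subunit of serine palmitoyltransferase, which starts sphingolipid synthesis, had 6.97 and 7.40 in the high cells and 4.46 and 4.42 in the negative cells, where it was not well above background, so it was at least 5.27-fold higher (adjusted p 0.0044). Of the other 27 measured sphingolipid genes none passed. GJA1, a connexin of gap junctions, had 10.11 and 10.83 in the high cells and 7.84 and 8.14 in the negative cells, a 5.58-fold rise (adjusted p 0.0062). CLDN1, a tight junction protein, rose by 1.14, and beside GJA1 and CLDN1 no gene passed on the junction and keratin list of 32 measured genes, which does not hold KRT20. COL5A2, a fibrillar collagen chain, had 8.97 and 9.41 in the high cells and 6.77 and 7.31 in the negative cells, a 4.44-fold rise. VCAN, the matrix proteoglycan versican, had 6.54 and 6.49 in the high cells, against 4.48 and 4.68 in the negative cells, where it was not well above background, and was at least 3.31-fold higher. Of 29 measured mesenchymal and extracellular matrix genes these 2 rose, while EGFLAM and PLAU fell. The median of that list was 0.25 log2 units (0.10 in sort 1 and 0.28 in sort 2). Over all genes 0.607% were called higher and 0.259% lower, and the median was -0.008.

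DPPA3, a factor of germ cells and early embryos, had 7.65 and 8.50 in the high cells and 5.56 and 6.63 in the negative cells, a rise of 1.98 log2 units. The pluripotency list itself had no call among 7 measured genes. TNFRSF11B, the decoy receptor osteoprotegerin, had 6.30 and 6.97 in the high cells and 4.94 and 4.72 in the negative cells, a rise of 1.81. EPAS1, an oxygen-regulated transcription factor, had 9.27 and 9.50 in the high cells and 7.40 and 7.84 in the negative cells, a rise of 1.77 (adjusted p 0.025). HIF1A, its relative, differed by 0.08 and 0.06 on its probes, and among 28 hypoxia and glycolysis genes none passed. ABCB1, a drug efflux pump, had 8.56 and 8.35 in the high cells and 6.98 and 6.51 in the negative cells, a 3.27-fold rise (adjusted p 0.014), alone among 21 ABC transporters. EPHA4, an ephrin receptor, rose by 1.31, alone among 12 measured Eph receptors and ephrins. The share of all genes called higher was 0.607%. VIM, vimentin, differed by 1.03 (adjusted p 0.056).

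Further called rises, chosen for mention after their values were seen, covered membrane and signalling proteins. LPAR1, a lysophosphatidic acid receptor, rose by 1.74 log2 units, KCNJ8, a potassium channel, by 1.65, EMP1, an epithelial membrane protein, by 1.63, and CDH6, a cadherin, by 1.63. PCDH7, a protocadherin, rose by 1.48 on one probe and differed by 0.32 on another. KISS1R, the kisspeptin receptor, rose by 1.23, SLC6A4, the serotonin transporter, by 1.16, and LCP1, an actin-bundling plastin, by 1.36. HOXB8, not well above background in the negative cells, was at least 1.78-fold higher, and the other 7 measured genes of its cluster ran from 0.01 to 0.93 without passing, HOXB9 highest.

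Outside the Wnt genes, several of the largest falls ended near background in the AC133 high cells. EGFLAM, a matrix protein, had 4.53 and 4.68 in the high cells, not well above background, and 8.52 and 6.83 in the negative cells, so it was at least 7.61-fold lower (adjusted p 0.033). EDN3, an endothelin, had 4.75 and 4.70 in the high cells, also not well above background, and 7.85 and 7.09 in the negative cells, at least 6.62-fold lower (adjusted p 0.0078). GPR83, a G protein-coupled receptor, had 5.13 and 5.04 in the high cells and 8.67 and 7.39 in the negative cells, and fell by 2.95 (adjusted p 0.016). ZAP70, a T cell kinase, fell by 2.68 on one probe, while its other probes differed by -0.26 and -0.68 without passing. PGM5, a phosphoglucomutase relative, fell by 2.11 on one probe and differed by -0.36 on another. C3orf70 had 6.11 and 7.06 in the high cells and 8.62 and 8.56 in the negative cells, and fell by 2.00. CALML3, a calmodulin-like protein, fell by 1.89 and missed the threshold without the block (adjusted p 0.069). Only 1 AC133 high array detected NOTUM, CYP26A1, CALML3, ZAP70, DEFA5 and CTSE, which limits the size of these falls. In 23 of the 26 called falls the negative array of sort 1 was higher than that of sort 2, by more than 1 log2 unit in 6 of them. How often this held over all tested probes was not counted.

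Of 5 measured metallothioneins, small proteins that bind zinc and copper, 2 fell, beside 0.259% of all genes called lower. MT2A had 7.44 and 6.66 in the high cells and 9.19 and 8.20 in the negative cells, and fell by 1.64 log2 units (SE 0.22, adjusted p 0.038). MT1X had 8.06 and 7.57 in the high cells and 9.68 and 8.87 in the negative cells, and fell by 1.46 (adjusted p 0.031). The other measured members, MT1G, MT1M and MT1F, differed by -1.36, -0.87 and -0.84, with adjusted p of 0.075, 0.261 and 0.489. Members of this family are close in sequence, and their probes may share transcripts. All 5 were lower in the high cells in both sorts, the levels of sort 2 lay below those of sort 1 in both gates, and without the block MT2A and MT1X missed the threshold (adjusted p 0.236 and 0.152). The family was picked after its values were seen, and how often genes were lower in both sorts over all genes was not counted. SLC39A8, a zinc importer outside the naming rule, was not well above background in the negative cells and was at least 1.84-fold higher in the high cells.

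CYP26A1, which degrades retinoic acid, fell by 1.36 log2 units on one probe and differed by -0.10 on another, and RARRES1, a retinoic acid response gene, differed by 0.91 (adjusted p 0.060). GADD45G, a stress response gene not well above background in the high cells, was at least 2.24-fold lower. PLAU, the urokinase protease, fell by 1.18. CXCR4, a chemokine receptor used as a tumour-initiating cell marker, differed by -1.13 and -0.88 on its probes (adjusted p 0.058 and 0.062). CDKN2A, a cell cycle inhibitor, differed by -0.99 on one probe (0.055) and by -0.25 on another (0.680). Called falls named after their values were seen include MYL7, a myosin light chain of the atrium, by 1.30, TESC, a calcium-binding protein, by 1.19, and CTSE, a gastric protease, by 1.05 on one probe while another differed by -0.23.

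Cell cycle and housekeeping lists had no calls and small medians. None of 51 S phase genes and none of 72 G2 and mitosis genes passed, with medians of -0.13 and 0.07 log2 units. Since 0.866% of all genes passed, a list of this size without calls is not set apart from the rest. Of the S phase genes 36 were negative, 27 of them in both sorts. Of the G2 and mitosis genes 46 were positive, 26 of them in both sorts, beside 48.7% positive over all genes. Replication-dependent histones had no call among 23 genes, of which 20 were negative, with a median of -0.20. BMP4, a morphogen, differed by -0.92 (adjusted p 0.059) and BMP2 by 0.92 (0.083), and no gene of the BMP or Notch lists passed. No call was made among 59 ribosomal protein genes, 69 oxidative phosphorylation genes, 51 glycosylation genes, 30 sterol and fatty acid synthesis genes, 27 immediate early genes, 25 genes of the unfolded protein response, 20 p53 targets, 19 CDK inhibitor and quiescence genes or 19 interferon genes. Their medians ran from -0.10 to 0.06.

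**Figure D4:**
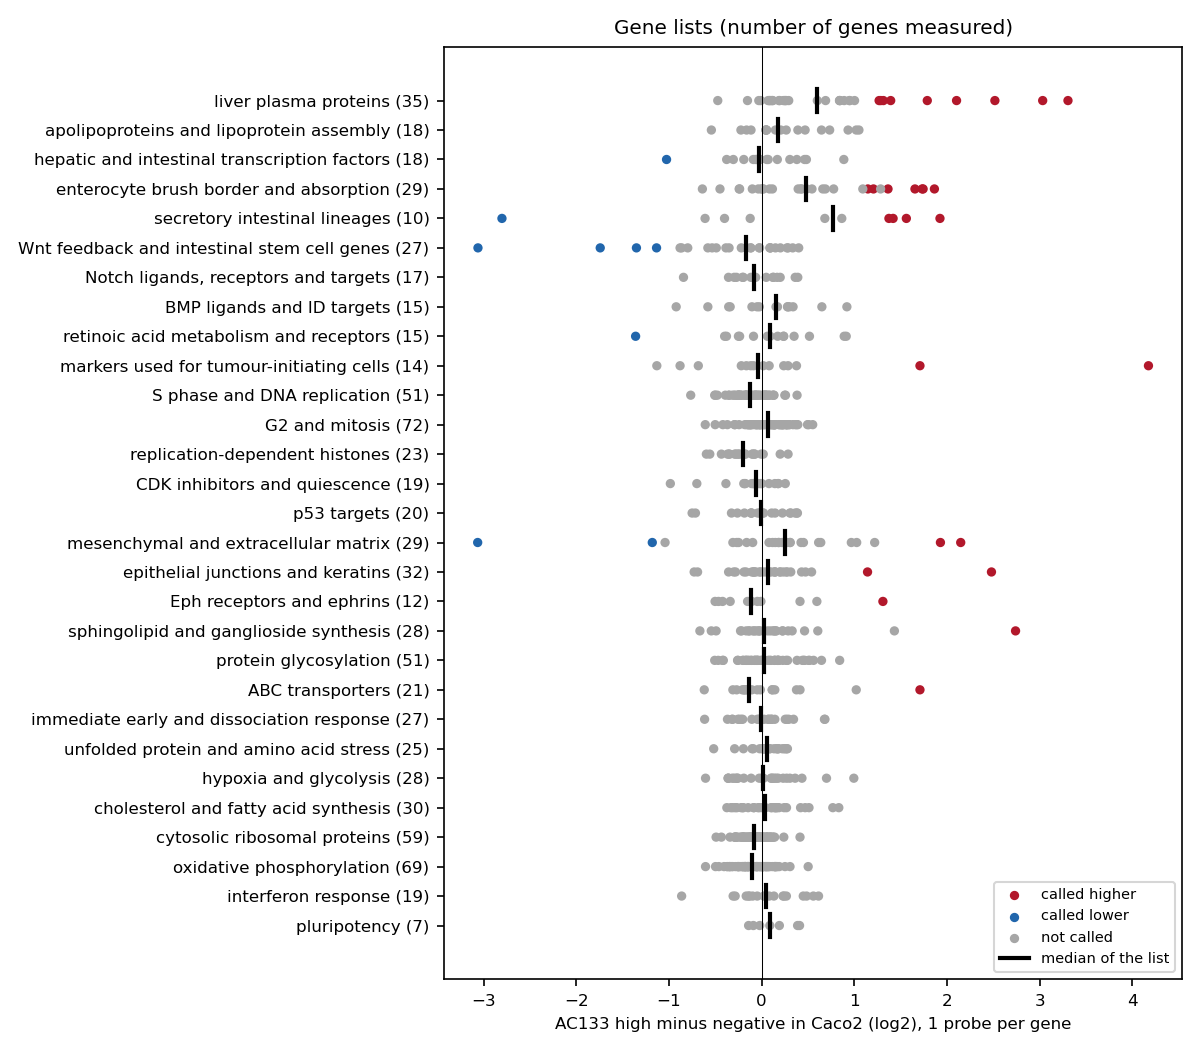
AC133 high minus negative difference in Caco2 (log2, horizontal axis) of each measured gene on 29 lists, 1 probe per gene, with called rises in red, called falls in blue, other genes in grey and the list median as a black bar. The liver plasma, enterocyte and secretory lists have medians of 0.60, 0.48 and 0.77, the last over 10 genes and with 1.19 in sort 1 and 0.36 in sort 2, and the other medians lie between -0.20 and 0.25.

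The same gates in WM115 called 1 of these 12244 probes (0.00817%), that of PROM1, with 9.60 and 9.54 in the WM115 high cells and 5.72 and 6.22 in the WM115 negative cells. The PROM1 difference did not pass the test between lines (0.58 log2 units larger in Caco2, adjusted p 0.689). That test called 5 probes (0.0408%), among them AFP, ALB, SPTSSB and SELENOP, which were detected on 0 or 1 of the WM115 arrays. Of the 92 probes called in Caco2, 57 were detected on no WM115 array, so no change could be measured there. Of the 25 detected on all 4 WM115 arrays 18 had the same sign, a share not set against that of all probes. Of these 25 probes, 4 were over 1 log2 unit the same way. These were PROM1, EPHA4 (1.34), EEF1A2, a translation factor of nerve and muscle (1.36), and CEACAM1 (1.23). EPHA4 had 8.43 and 8.09 in Caco2 high cells and 7.25 and 6.65 in Caco2 negative cells, and 8.04 and 7.94 in WM115 high cells and 6.76 and 6.54 in WM115 negative cells. Its groups did not overlap in either line, and in WM115 it did not pass (adjusted p 0.202). In Caco2 38.8% of all tested probes, and every called probe, did not overlap, and the share in WM115 was not counted. EPHA4 is named here for its large WM115 difference. VCAN rose in Caco2 and differed by -0.82 in WM115, and the test of that gap gave an adjusted p of 0.052. MT2A and MT1X, bright in WM115, differed there by -0.14 and -0.16.

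**Figure D5:**
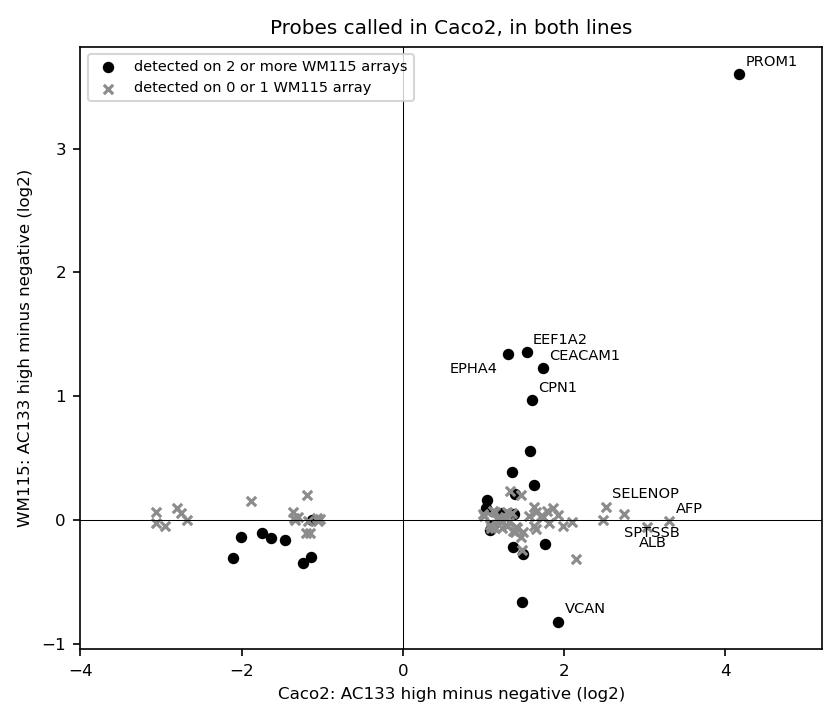
AC133 high minus negative difference (log2) in Caco2 on the horizontal axis and in WM115 on the vertical axis, for the 92 probes called in Caco2, with black circles for those detected on 2 or more WM115 arrays and grey crosses for the 64 detected on 0 or 1. PROM1 is high on both axes, EPHA4, EEF1A2, CEACAM1 and CPN1 lie above the rest, and most other probes lie near 0 in WM115.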

How the data were processed

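The deposited files give, per array, an intensity for each probe (mean bead signal, BeadStudio 3, HumanRef-8 version 2), not normalized between arrays, with a detection p-value, a count of beads and the standard error over beads, per the file headers. The authors' joint table of quantile-normalized intensity was used as an alternative. The files name no genome build, and 19715 probes carry 1 symbol. Intensities were corrected by normexp in limma 3.58.1 (R 4.3.3; background inferred from detection p-values, offset 16), quantile normalized over 8 arrays and taken to log2. A fit on all 8 arrays with sort within line as a block (2 residual and 4.49 prior degrees of freedom) gave two-sided tests, adjusted by Benjamini-Hochberg over 12244 probes. Sort numbers in the labels pair the gates: deviations of same-sort arrays correlated at 0.283 across probes in Caco2 and 0.146 in WM115. The fit was tested on simulated data, where it found most seeded differences but made false calls at a higher share than its threshold sets. For a probe not detected on either array of a gate, a fold is a lower bound against the lowest detected signal. The p-values rest on how far the high minus negative difference varied between sorts, pooled over both lines and moderated across probes. The number of arrays limits precision. Lists are described with 1 probe per gene, the brightest. Named genes are PROM1, MELK, the 15 largest called rises and the 15 largest called falls, each seen in both sorts, called list members, and up to 3 members of each list with the smallest p. The members, lists and tests were chosen with earlier results of these data known. Further genes with values, such as list members shown beside the called ones, are outside that rule, and not all are marked as such.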

Additional observations from a re-analysis of the deposited data

Results flagged for a closer look

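For 4 genes the AC133 high minus negative difference itself differed between the lines, by the limma contrast of the Caco2 and WM115 differences. AFP differed by 3.31 log2 units more in Caco2 than in WM115 (SE 0.23, adjusted p 0.037), ALB by 3.08 (adjusted p 0.037), SPTSSB by 2.69 (adjusted p 0.046) and SELENOP by 2.40 (adjusted p 0.046). In WM115 AFP, SPTSSB and SELENOP were detected on no array and ALB on 1, so these values set a rise in Caco2 against a gene near background in WM115.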

How the results depend on the processing

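Against 92 calls, 66 higher and 26 lower, the fit without the replicate block gave 120 with 75 shared. Of 49 named called probes 41 kept their call and 8 lost it, namely CALML3, CEACAM5, DEFA5, KRT20, MT1X, MT2A, PROX1 and PTK7. The Caco2 arrays alone gave 259 (175 higher, 84 lower) with the block and 49 (34 and 15) without it. An offset of 50 gave 32 (29 and 3). Testing all 22184 probes gave 0 by limma, with 1923 at an unadjusted p under 0.05, and 66 with an intensity trend (17 lower), an alternative chosen after seeing the data. Probes detected on all 4 arrays gave 16 falls. Leaving out either Caco2 sort gave 0, with 753 and 662 at an unadjusted p under 0.05, since 1 Caco2 pair is left, and leaving out either WM115 sort gave 259 (175 and 84). Single arrays left out without the block gave 14 to 119 calls, 11 to 84 higher and 2 to 35 lower: 20 (18 and 2) without Caco2 high sort 1, 22 (17 and 5) without negative sort 1, 14 (11 and 3) without high sort 2, 83 without negative sort 2 and 53 (37 and 16) without either WM115 high array. The methods' t-test gave 917 unadjusted (488 and 429) and 0 after Benjamini-Hochberg. Calls between the lines numbered 5 and became 9 with median scaling, 14 without background correction, 12 with the authors' values, 11 at a detection p under 0.01, 3 with no block and detection on all 4 arrays, and 0 with an offset of 50 or no filter, with or without the trend. With arrays or sorts left out they ran from 0 to 171, among them 13 if WM115 sort 2 was dropped, 14 if Caco2 negative sort 2 was dropped and 111 if WM115 negative sort 1 was dropped. No called named gene changed sign. Leaving out arrays or sorts could not reverse one, since the groups of every called probe did not overlap. L1TD1 was 0.804 without Caco2 sort 1 and reversed to -0.028 without Caco2 sort 2, and MAML1 reversed to 0.046 without the AC133 high array of sort 2, both not called. Medians of the liver plasma list ran from 0.39 to 0.84, of the enterocyte list from 0.33 to 0.57 and of the Wnt list from -0.42 to -0.07, with no change of sign over 25 alternatives. Except where fewer arrays or more probes explain a loss by construction, the cause was not tested. Signals near background limit the size of falls that end there.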
